A study of Mus musculus with 3 samples.

Results

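Primary granules, also called azurophil granules, are the first granules that a developing neutrophil makes. Their main cargo is coded by Elane (neutrophil elastase), Prtn3 (proteinase 3), Ctsg (cathepsin G) and Mpo (myeloperoxidase). These genes and Ms4a3, a gene of early granulocyte and monocyte precursors, are the 5 members described here, of 31053 genes in the count matrices. They were chosen by name: 3 serine proteases, 1 peroxidase and Ms4a3, which codes for a membrane protein with 4 transmembrane passes and is neither. Their identifiers in the files are ENSMUSG00000020125 (Elane), ENSMUSG00000057729 (Prtn3), ENSMUSG00000040314 (Ctsg), ENSMUSG00000009350 (Mpo) and ENSMUSG00000024681 (Ms4a3).

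The transcripts of the proteases and of myeloperoxidase are made mainly at the promyelocyte stage in the marrow, and they are shut down as the cell goes on to make specific and gelatinase granules. The proteins stay in the granules of the mature neutrophil, which holds little of the mRNA. Monocyte precursors also make these transcripts for a time, and Ms4a3 is used as a mark of descent from granulocyte-monocyte progenitors. In blood, their mRNA is therefore used as a mark of immature myeloid cells.

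Blood cells of C57BL/6J mice, labelled as peripheral blood mononuclear cells, were sequenced as 3 droplet libraries, each labelled 12 h. Sham was labelled as sham alone. The CLP library is labelled with CMC treatment and CLP, and the HDCA+CLP library with HDCA treatment and CLP, with no order of treatment and surgery given. CLP is usually short for caecal ligation and puncture, which is used to model abdominal sepsis. CMC is usually carboxymethylcellulose, a common vehicle, and HDCA hyodeoxycholic acid, a bile acid, but the labels spell out none of them. Since CMC stands on the CLP label and not on that of Sham, these libraries may differ in the vehicle too. Each group is 1 library, and the number, age and sex of the animals behind it are not given in the sources used here. There is hence no replicate error. Every interval below is a 95% interval for counting error alone (Poisson for counts, Clopper-Pearson for shares), and it is too narrow for genes whose counts sit in few cells. No test between groups was possible.

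Filtering left 6496 cells of Sham, 9853 of CLP and 10849 of HDCA+CLP, at median depths of 5207, 6470 and 7053 UMIs per cell (a UMI is 1 captured mRNA molecule). Each cell was placed in the first gate that it met. The neutrophil gate took cells with at least 5% of their UMIs from S100a8 and S100a9. The B gate needed at least 3 UMIs of Cd79a, Cd79b and Ms4a1, the T gate at least 2 of Cd3d, Cd3e, Cd3g and Trac, and the NK gate at least 2 of Ncr1, Klrb1c and Klra8. The monocyte gate needed at least 3 of Csf1r, Ms4a6c and F13a1. The neutrophil gate held 3.63% of Sham, 45.5% of CLP and 75.7% of HDCA+CLP cells, although the label says mononuclear and the protocol names no gradient or sort. The monocyte gate held 283 cells (4.36%), 720 cells (7.31%) and 283 cells (2.61%). A gate is a threshold on a few genes and not a cell type. The kept cells of different libraries shared 15 to 30 barcodes per pair of libraries, and no such barcode carried 10 or more UMIs of the 5 genes in both.

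The stretches just before the 5 start sites are shown because the genes were found in the same cells. They are the 250 bases upstream of each RefSeq start on build GRCm38.p6, 5′ to 3′ along the gene. Capitals mark GAGGAA, the core of many binding sites of PU.1, a transcription factor of myeloid cells. The submitters' notes name another build for the counts, and the coordinates serve here only to place these stretches.
Elane (chr10:79886062-79886311, plus strand): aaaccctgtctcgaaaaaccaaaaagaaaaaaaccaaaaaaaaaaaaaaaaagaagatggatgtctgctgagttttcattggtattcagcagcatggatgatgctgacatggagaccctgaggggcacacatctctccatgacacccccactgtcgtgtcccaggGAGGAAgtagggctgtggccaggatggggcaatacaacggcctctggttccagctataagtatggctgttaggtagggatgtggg
Prtn3 (chr10:79879417-79879666, plus strand): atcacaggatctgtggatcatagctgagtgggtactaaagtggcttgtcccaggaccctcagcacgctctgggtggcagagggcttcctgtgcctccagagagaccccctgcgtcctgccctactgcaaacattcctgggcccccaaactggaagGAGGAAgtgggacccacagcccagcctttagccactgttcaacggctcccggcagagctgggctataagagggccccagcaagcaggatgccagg
Ctsg (chr14:56102575-56102824, minus strand): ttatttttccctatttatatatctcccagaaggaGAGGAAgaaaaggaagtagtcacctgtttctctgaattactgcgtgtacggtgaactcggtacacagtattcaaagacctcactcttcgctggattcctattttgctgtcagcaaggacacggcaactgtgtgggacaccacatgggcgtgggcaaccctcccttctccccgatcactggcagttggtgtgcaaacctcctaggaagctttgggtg
Mpo (chr11:87793534-87793783, plus strand): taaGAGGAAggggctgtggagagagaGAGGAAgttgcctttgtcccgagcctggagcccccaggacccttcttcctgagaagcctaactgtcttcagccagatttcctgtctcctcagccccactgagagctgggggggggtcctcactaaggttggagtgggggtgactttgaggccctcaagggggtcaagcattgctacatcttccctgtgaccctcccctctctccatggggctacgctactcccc
Ms4a3 (chr19:11640852-11641101, minus strand): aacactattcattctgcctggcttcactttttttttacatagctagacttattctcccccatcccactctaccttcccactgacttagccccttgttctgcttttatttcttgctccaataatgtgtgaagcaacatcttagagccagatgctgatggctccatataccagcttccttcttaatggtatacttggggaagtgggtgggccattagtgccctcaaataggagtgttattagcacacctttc
GAGGAA was present on one strand or the other in 4 of the 5 stretches, all but that of Ms4a3, and in 23.3% of 32851 RefSeq promoters of the same length. It lay 80 to 95 bases before the start in Elane and Prtn3, and farther out in Ctsg and Mpo. The longer GAGGAAGT, searched for after these sequences had been read, was in 3 stretches (Elane, Prtn3 and Mpo) and in 2.44% of all promoters. It contains the shorter motif, so both counts rest on the same letters. AACNG, a core bound by MYB, was in 4 of the 5 and in 74.2% of all promoters. TTNNGNAA, a C/EBP core, was in the Ms4a3 stretch alone (36.8% of all), and TGNGGT, a RUNX core, in that of Ctsg alone (40.1% of all). All searches covered both strands, and a match is letters and not a measured site. Prtn3 and Elane are neighbouring coding genes. Ctsg lies beside Mcpt8, a basophil protease gene, and Ms4a3 beside Ms4a2, a subunit of the IgE receptor.

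In all 3 libraries most of these transcripts lay in the monocyte gate and not in the neutrophil gate. The 5 genes gave 155, 7181 and 3840 UMIs over the kept cells of Sham, CLP and HDCA+CLP. The monocyte gate held 78.7%, 78.3% and 57.0% of them. The neutrophil gate, with up to 75.7% of the cells, held 5.16%, 11.5% and 42.4%. By gene, Prtn3 and Ms4a3 in HDCA+CLP were exceptions, with 50.4% and 57.4% of their UMIs in the neutrophil gate and 48.9% and 41.5% in the monocyte gate. So were Ms4a3 and Ctsg in Sham, where 1 cell without a gate held all 3 UMIs of Ms4a3 and 7 of the 14 of Ctsg.

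Elane, the elastase gene, had a level in the monocyte gate of 1.35 CPM (UMIs per 1000000 UMIs of the gate) in Sham, on 4 UMIs, with 94.4 CPM in CLP and 110.3 CPM in HDCA+CLP. In the neutrophil gate it was not detected in Sham, where 3 counts would be 2.50 CPM, and the CLP and HDCA+CLP levels were 2.90 and 0.811 CPM. Elane was thus low or undetected in Sham in both gates, and highest in the monocyte gate in the other libraries. The CLP value of the neutrophil gate rested on 111 UMIs, of which 106 were in 8 cells.

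Prtn3, which codes for proteinase 3, had the broadest distribution. Its monocyte gate levels were 36.8, 249.5 and 294 CPM in Sham, CLP and HDCA+CLP. In the neutrophil gate it was at 6.68, 13.9 and 17.6 CPM, where the Sham value rested on 8 UMIs in 4 cells. Prtn3 was the only one of the 5 with more than 7 UMIs in the monocyte gate of Sham, at 109 UMIs.

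Ctsg, the cathepsin G gene, was at 2.36, 66.5 and 64.4 CPM in the monocyte gate of Sham, CLP and HDCA+CLP, and at 0, 0.314 and 0.689 CPM in the neutrophil gate. Mpo, the peroxidase that makes hypochlorous acid, was at 0.674, 43.6 and 47.0 CPM in the monocyte gate and at 0, 0.418 and 1.03 CPM in the neutrophil gate. Both were near the level of single counts in Sham. Ms4a3 was not detected in the monocyte gate of Sham, and its CLP and HDCA+CLP levels there were 58.5 and 58.8 CPM. In the neutrophil gate it was at 0, 4.05 and 4.74 CPM.

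**Figure D1:**
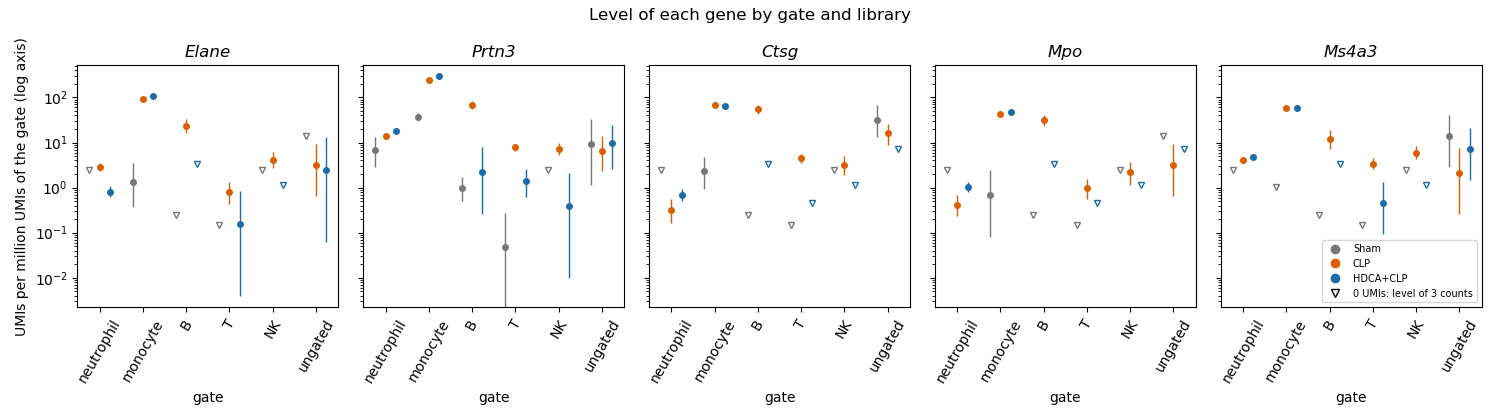
Level of each gene (UMIs per 1000000 UMIs of the gate, log axis) in each gate and library. Points are sums over the cells of 1 library with exact Poisson 95% intervals for counting error, and open triangles mark 0 UMIs, drawn at the level that 3 counts would give. The monocyte gate of CLP and HDCA+CLP is the highest gate for each gene, with Elane at 94.4 and 110.3.

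The 5 genes summed were 12.5-fold higher in CLP than in Sham in the monocyte gate, 513 against 41.1 CPM (log2 ratio 3.64, interval 3.38 to 3.91). By gene, the log2 ratio was 6.13 for Elane (interval 4.77 to 8.01), 2.76 for Prtn3 (2.49 to 3.05), 4.82 for Ctsg (3.76 to 6.13) and 6.01 for Mpo (4.15 to 9.06). Ms4a3 was at 0 in Sham, and its CLP level was 57.8-fold above the level of 3 counts there. The interval of its log2 ratio began at 5.55. Elane, Ctsg, Mpo and Ms4a3 had under 20 UMIs in Sham, so their ratios rest on few Sham counts. The ratios of Ctsg and Mpo were smaller without the 10 cells of each library with most of these UMIs, at 3.73 and 3.95, and as a mean over cells, at 3.41 and 4.26. The median log2 ratio of genes with at least 20 UMIs in the pair of libraries was −0.18. The cells of the gate were deeper in CLP, with a median of 13939.5 UMIs against 10604. Summed cell cycle genes of the gate were higher as well, at 3876 CPM against 1874. The part of depth and of the gate's make-up in the difference was not tested.

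In the neutrophil gate the same sum was 21.6 CPM in CLP against 6.68 CPM in Sham (log2 ratio 1.69, interval 0.71 to 2.91), on 824 and 8 UMIs. Of the 824, 401 were in 8 of the 4479 CLP cells. In those 8 the 3 genes of the monocyte gate were together at 2913 CPM, against 29.5 CPM in the rest of the gate. The other 4471 cells were at 11.1 CPM, above the 6.68 CPM of Sham but inside its interval of 2.88 to 13.2 CPM. That interval is wide because it rests on 8 UMIs. The 8 CLP cells were also picked by these same UMIs, so their part in the difference cannot be told. Elane and Ms4a3 were at 0 in Sham, against 111 and 155 UMIs in CLP. Set against the level of 3 counts in Sham, they were 1.16-fold and 1.62-fold higher. The interval of the log2 ratio began at −0.11 for Elane, so it included no difference, and at 0.38 for Ms4a3. Prtn3 was 2.08-fold higher, and its 8.07 CPM in the other 4471 cells also lay inside that interval.

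HDCA+CLP was set against CLP, the library that also served as the comparison with Sham. In the monocyte gate the sum was 575 CPM against 513 (log2 ratio 0.17, interval 0.09 to 0.24). None of the 5 was 2-fold apart in either direction, against 1.59% of genes higher and 2.47% lower. The log2 ratios ran from −0.05 for Ctsg to 0.24 for Prtn3. Leaving out the 10 cells with most of these UMIs in each library turned the summed ratio to −0.14 (interval −0.24 to −0.04). In this gate 95 CLP and 40 HDCA+CLP cells had at least 10 UMIs of the 5 genes. The cells left out were hence a larger share of these in HDCA+CLP. What the direction rested on cannot be told from this ratio. Over all cells the order was different: the sum was 48.2 CPM in HDCA+CLP against 97.0 in CLP, 2.01-fold lower. The monocyte gate was also a smaller share of the HDCA+CLP cells, 2.61% against 7.31%. These are shares of the cells loaded, not counts of cells per volume of blood.

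In the neutrophil gate the HDCA+CLP sum was 24.9 CPM against 21.6 in CLP (log2 ratio 0.21, interval 0.09 to 0.33). Ctsg and Mpo were at least 2-fold higher, 2 of 5 against 1.84% of genes, and Elane at least 2-fold lower (log2 ratio −1.84), 1 of 5 against 2.37%. These 3 rested on few cells. Without the 10 highest cells of each library the log2 ratios of Ctsg and Mpo were −0.77 and −1.19. Those cells were taken over all gates. In HDCA+CLP they included cells of this gate, at ranks 6 and 10, but in CLP the highest cell of this gate ranked 15. These ratios thus left out cells of the gate in HDCA+CLP alone. With the gate at 10% the log2 ratio of Elane was 0.69 (interval −1.07 to 2.79). Elane was at 5 UMIs in 4471 CLP cells and 16 UMIs in 8209 HDCA+CLP cells once cells with 10 or more UMIs of the 5 genes were set aside. The summed ratio itself was −0.73 with the neutrophil gate at 2% and 0.82 with it at 10%, so its direction depends on where the gate is drawn.

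The UMIs were concentrated in few cells, and unequally among the genes. In CLP, 670 of 9853 cells had any UMI of the 5 genes, and the 10 highest cells held 32.2% of the UMIs (interval 31.1 to 33.2). In HDCA+CLP, 1119 of 10849 cells had one and the 10 highest held 32.8% (31.3 to 34.3). These intervals treat each UMI as independent and the 10 cells as fixed. The same UMIs picked those cells, so the intervals do not cover that choice. It took 24 cells to reach 50% of the UMIs in CLP and 26 in HDCA+CLP. To reach 90% took 168 cells in CLP and 735 in HDCA+CLP. Mpo was the most concentrated, with 72.9% and 88.6% of its UMIs in 10 cells. Ctsg had 57.5% and 72.4% there, Elane 49.96% and 62.9%, Ms4a3 26.3% and 23.1%, and Prtn3 23.2% and 22.6%. In HDCA+CLP, 704 of the 936 cells with Prtn3 had a single UMI of it, against 304 of 563 in CLP.

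**Figure D2:**
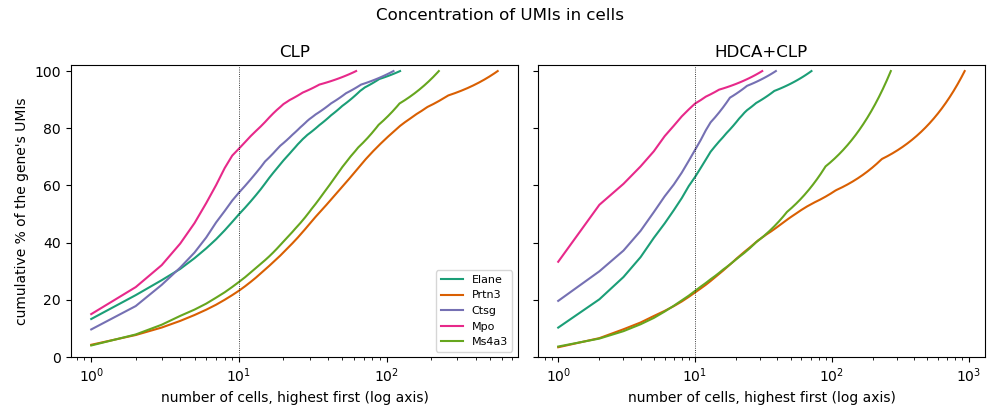
Cumulative percent of each gene's UMIs (y axis) against the number of cells taken from the highest down (x axis, log scale), in CLP and HDCA+CLP; the dotted line marks 10 cells. The Mpo curve reaches 72.9% and 88.6% at that line, the Prtn3 curve 23.2% and 22.6%.

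Cells with at least 10 UMIs of the 5 genes together were taken as high cells. There were 112 in CLP (1.14% of cells, interval 0.937 to 1.37), 48 in HDCA+CLP (0.442%, 0.326 to 0.586) and 1 in Sham (0.0154%). They held 84.6% of these UMIs in CLP and 59.0% in HDCA+CLP. Of the 112, 95 were in the monocyte gate and 8 in the neutrophil gate, and of the 48, 40 and 8. As a share of that gate, high cells were 13.2% in CLP (10.8 to 15.9), 14.1% in HDCA+CLP (10.3 to 18.7) and 0 of 283 cells in Sham (0 to 1.30), where 3 cells would be 1.06%. The share was hence lower in HDCA+CLP over all cells, and within the counting error of CLP inside the monocyte gate. The limit of 10 cuts a range: 28 CLP and 14 HDCA+CLP cells had 7 to 9 UMIs, and 12 and 10 cells had 10 to 12.

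High cells were deep, with median depths of 26428 and 23319 UMIs in CLP and HDCA+CLP, against 13339 and 12241 in the other cells of the monocyte gate. The doublet score had removed 8 further cells with at least 10 of these UMIs in each of the 2 libraries. At equal depth (2000 UMIs per cell, at least 3 UMIs of the 5 genes), 6.10% of the monocyte gate of CLP (4.45 to 8.13) and 8.57% of that of HDCA+CLP (5.57 to 12.5) were high. Of the high CLP cells outside the main gates, 5 fell in the B gate, 2 in the T gate and 1 in the NK gate, with 3 to 9 UMIs of the genes of their gate. The B gate of CLP held 281 UMIs of the 5 genes, of which 3 lay outside those cells. All 8 had at least 21 UMIs of the monocyte gate's genes, and 111 of 112 CLP and 48 of 48 HDCA+CLP high cells had at least 3. Neutrophil markers summed to 17421 CPM in the high cells of both libraries together and 7506 in the other monocyte gate cells. For B cell markers the sums were 15.0 and 8.28 CPM, for T cell markers 9.60 and 18.8, and for NK cell markers 31.1 and 15.9. The high cells here included those of the neutrophil, B, T and NK gates, which the other set leaves out by definition. Within the monocyte gate, S100a8 and S100a9 together were at 10165 CPM in high cells against 6778 in the others in CLP. In HDCA+CLP they were at 13096 against 9090 CPM. The part of doublets that the score did not find was not tested.

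The genes did not occur in fixed proportions. All 5 were found in 34 of the 112 CLP and 15 of the 48 HDCA+CLP high cells, and 4 in another 30 and 13. Prtn3 was in every high cell of these libraries, with a median of 17 and 16 UMIs. Ms4a3 was in 96 and 37 cells, Elane in 86 and 40, Ctsg in 78 and 31, and Mpo in 46 and 20. The highest CLP cell had 446 UMIs of the 5 genes, 1.38% of its UMIs: 163 of Elane, 121 of Prtn3, 90 of Ctsg, 41 of Mpo and 31 of Ms4a3. The highest HDCA+CLP cell had 275, and there Mpo led with 82. Across the 5535 CLP cells of the neutrophil and monocyte gates and without a gate, Ctsg and Mpo had the highest correlation of any pair (Pearson r 0.77; 0.76 over 8682 HDCA+CLP cells). Mpo and Ms4a3 had the lowest (0.42 and 0.20). These values describe cells of 1 library that share depth.

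**Figure D3:**
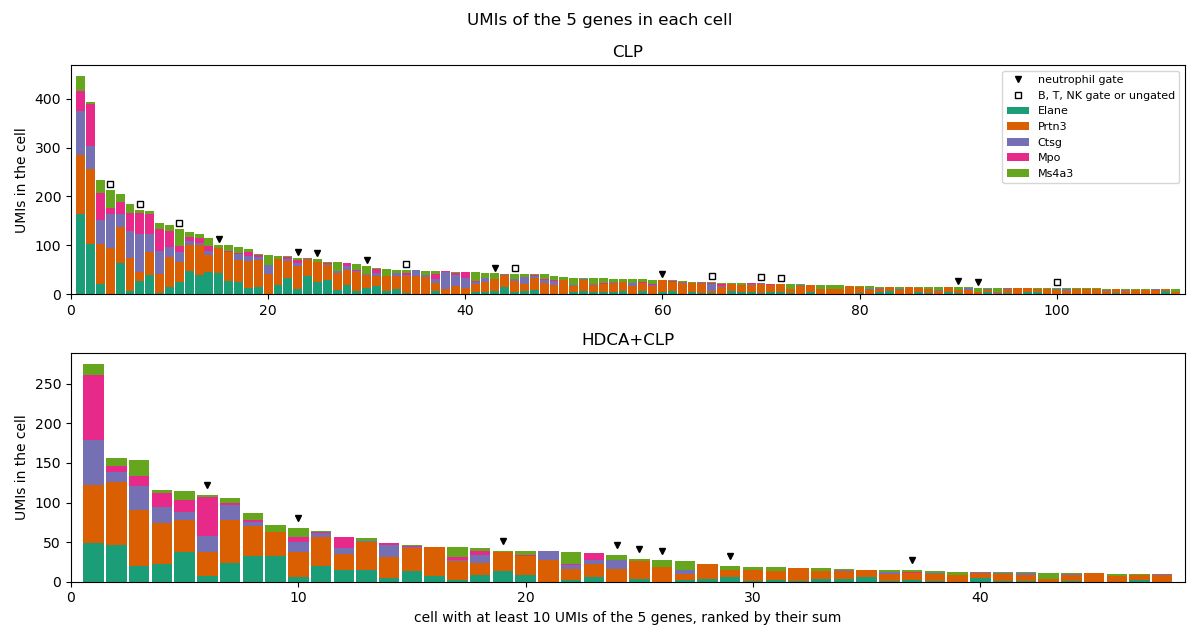
UMIs of each gene (y axis, stacked) in each cell with at least 10 UMIs of the 5 genes, ranked by their sum (x axis), in CLP (112 cells) and HDCA+CLP (48 cells). Triangles mark cells of the neutrophil gate and squares those of the B, T and NK gates or without a gate; Mpo appears mainly in the leftmost cells, led by 446 and 275 UMIs in all.

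High cells with Mpo differed from those without it. In CLP the 46 with an Mpo UMI had a median of 62.5 UMIs of the 5 genes and the 66 without 16.5; in HDCA+CLP the medians were 60 for 20 cells and 16.5 for 28. Cd34, a surface protein of stem and progenitor cells, was at 24.7 CPM in CLP high cells with Mpo and 1.85 CPM in those without. In HDCA+CLP that order did not recur: Cd34 was at 1.57 and 3.59 CPM. Mki67, a protein of cycling cells, was at 203 and 158 CPM in CLP, and in HDCA+CLP at 275 and 111 CPM. The sum of the 5 genes includes Mpo and also picked the high cells, so its difference was partly fixed by the split. These splits were chosen after the values were seen, and the cells with Mpo were deeper (medians of 29424 and 31397 UMIs against 23629 and 19732).

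Genes of other programmes were compared in high cells of any gate, CLP and HDCA+CLP together, first against the other cells of the monocyte gate. Over 10285 genes, 8.82% were at least 2-fold higher in high cells and 7.34% lower, with a median log2 ratio of 0.00. Cell cycle genes stood higher: 13 of 18 were at least 2-fold higher and 0 lower, with a median log2 ratio of 1.43. Rrm2, a subunit of ribonucleotide reductase, was at 83.1 against 6.05 CPM, Tyms, which makes thymidylate, at 86.8 against 14.0, and Cdk1, the mitotic kinase, at 64.8 against 15.0. H2afz (2013 against 1143 CPM) and Hmgb2 (2300 against 1001 CPM), chromatin proteins, had smaller ratios. Mki67 was found in 77 of 112 CLP and 30 of 48 HDCA+CLP high cells.

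Progenitor genes with at least 20 UMIs were at least 2-fold higher in 5 of 7 cases (median log2 ratio 1.59), at low levels. Cd34 was at 9.83 against 1.69 CPM and was found in 12 CLP and 3 HDCA+CLP high cells. Flt3, a receptor of early progenitors, was at 4.68 against 2.14 CPM, Sox4 at 3.74 against 1.25, and Myb, a transcription factor of immature blood cells, at 5.38 against 0.356. Kit, the stem cell factor receptor, was at 1.40 against 0.445 CPM on 6 and 5 UMIs. Npm1, a nucleolar protein, was at 1632 against 508 CPM.

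Early monocyte genes were close to the level of the other monocyte gate cells. Of 10, 0 were at least 2-fold higher and 1 lower (median log2 ratio −0.28). Ly86 was at 153 against 137 CPM, Fn1 (fibronectin) at 480.5 against 432, and Ccr2, the chemokine receptor of inflammatory monocytes, at 311 against 350.3. Ly6c2, the classical monocyte marker, was at 3116 against 2384 CPM, and Mpeg1, a pore-forming protein of macrophages, at 189 against 361. Csf1r, the macrophage growth factor receptor and 1 of the 3 gate genes, was the 1 lower, at 88.9 against 244 CPM.

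Genes that package or process primary granule cargo did not move as a group: 2 of 11 were higher and 2 lower (median log2 ratio −0.19). Ctsc, the protease that activates the granule serine proteases, was at 507 against 535 CPM, Lyz2 (lysozyme) at 5243 against 5365, and Gusb at 99.2 against 96.0. Serpinb1a, an inhibitor of these proteases, was at 160 against 25.2 CPM and Cd63, a granule membrane protein, at 20.1 against 46.7. Of the promyelocyte and proneutrophil list 4 of 12 were higher and 0 lower (median −0.01). Igfbp4 was at 29.7 against 1.96 CPM and Cst7, a cathepsin inhibitor, at 56.4 against 13.4, while Pdia4, a chaperone, was at 45.2 against 46.5. Trem3 was at 73.5 against 91.6 CPM, and Prss57, another protease of these granules, was at 1.64 CPM against 0.089 on 7 and 1 UMIs.

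Of the list of granulocyte transcription factors 2 of 11 were higher and 0 lower (median −0.25). The 2 were Myb and Gfi1, the latter at 2.81 against 0.801 CPM on 12 and 9 UMIs. Klf4 was at 48.0 against 86.6 CPM and Irf8 at 109 against 142, and both are in the early monocyte list as well. Cebpa, needed for the step to granulocyte-monocyte progenitors, was at 54.3 against 64.3 CPM. Cebpd was at 70.9 against 80.7 CPM and Cebpe, which drives specific granule genes, at 8.89 against 8.37. Of the gelatinase granule list 1 of 6 was higher and 1 lower (median −0.39). Ptx3, a soluble pattern receptor, was at 148 against 26.7 CPM, Slc11a1 at 45.9 against 219, Arg2 at 9.83 against 16.3, Mmp25 at 1.17 against 1.51 and Mmp9 (gelatinase) at 14.0 against 10.1. Of the mature neutrophil list 1 of 12 was higher and 3 lower (median −0.35). Ccl6 was at 265 against 347 CPM, Cxcr4 at 12.9 against 12.7, Mxd1 at 40.3 against 37.7, and Cxcr2, the receptor that mature neutrophils use to leave the marrow, at 20.6 against 5.52.

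Specific granule genes, the next to be made in neutrophil development, were higher in 3 of 8 cases against the monocyte gate (median 0.14), and this came from 1 library. Ngp was at 919 CPM in HDCA+CLP high cells against 158 in the other monocyte gate cells, but at 50.02 against 96.8 CPM in CLP. Camp (cathelicidin) was at 330 against 60.8 CPM and 24.7 against 40.2 CPM. Within HDCA+CLP, Camp, Ltf and Ngp together were at 6417 CPM in the 8 high cells of the neutrophil gate and 152 CPM in the 40 of the monocyte gate. In CLP the same sum was at 90.7 CPM in the 8 and 86.7 CPM in the 95. The other cells of the neutrophil gate were at 46367 CPM in CLP and 44558 CPM in HDCA+CLP. The list's median was 1.35 without doublet removal.

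Against the other cells of the neutrophil gate the same high cells looked different throughout, and the background was wide: 47.5% of 11471 genes were at least 2-fold higher and 14.2% lower, with a median log2 ratio of 0.88. Specific granule genes were lower in 8 of 9 cases (median −6.10), with Camp at 110.0 against 11525 CPM, Lcn2 at 5156 against 23044, Chil3 at 3063 against 7740, and Olfm4 at 0.234 against 159. Hp (haptoglobin) was at 3310 against 3438 CPM. Early monocyte genes were higher in 10 of 10 and cell cycle genes in 17 of 18. Most high cells were in the monocyte gate, 95 of 112 in CLP and 40 of 48 in HDCA+CLP. The early monocyte list holds all the genes of that gate, Csf1r, Ms4a6c and F13a1. This contrast is thus largely one of monocyte gate against neutrophil gate cells, and its ratios follow in part from the gates.

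**Figure D4:**
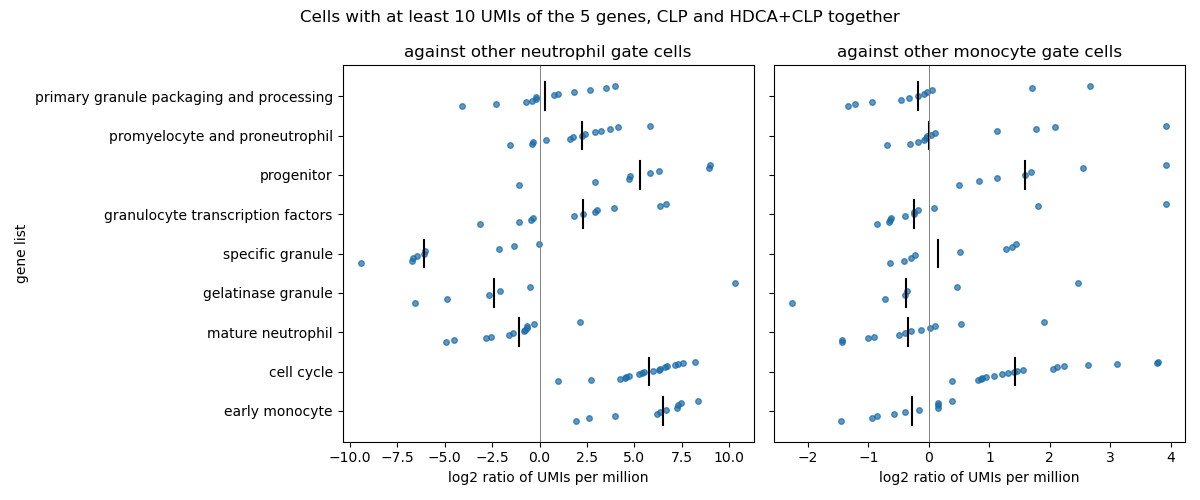
Log2 ratio of CPM (x axis) in cells with at least 10 UMIs of the 5 genes over the other neutrophil gate cells (left) and the other monocyte gate cells (right), CLP and HDCA+CLP together. Each point is a gene with at least 20 UMIs in the sets compared (genes at 0 in one set are not drawn), and black bars are medians; cell cycle genes have medians of 5.75 and 1.43, specific granule genes −6.10 and 0.14.

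Over the cells of the neutrophil and monocyte gates and those without a gate, among other genes with at least 100 UMIs there in CLP and in HDCA+CLP, those whose level across cells most resembled the summed 5 genes were ranked by the mean Pearson r of CLP and HDCA+CLP (5535 and 8682 cells). Stmn1, a tubulin-binding protein of dividing cells, ranked first with a mean r of 0.50 (0.59 in CLP, 0.41 in HDCA+CLP). It was at 430 CPM in high cells, 91.2 in other monocyte gate cells and 4.37 in other neutrophil gate cells. Dmkn, Pclaf, Lgals1, Tyms, Ybx3, Selenoh, Cks1b, Nhp2, F13a1, Prdx4 and S100a10 followed, with mean r from 0.46 down to 0.38. Pclaf, Tyms and Cks1b belong to the replication and division machinery, and F13a1 is a gate gene. Dmkn was at 195 CPM in high cells, 37.8 in other monocyte gate cells and 0.407 in other neutrophil gate cells. The ranking mixed the gates, so a gene that only separates monocyte gate from neutrophil gate cells can rank high. S100a10 was at 1574 CPM in high cells, 1540 in other monocyte gate cells and 10.0 in other neutrophil gate cells. F13a1 was at 981, 890 and 13.6 CPM. Values of this size in sparse counts are a description of cells that share a library and a range of depths.

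Outside the high cells, Prtn3 and Ms4a3 stood above the T gate in the neutrophil gate. Prtn3 had a UMI in 262 of 4471 CLP cells (5.86%, interval 5.19 to 6.59) and 801 of 8209 HDCA+CLP cells (9.76%, 9.12 to 10.4). In T gate cells, which should lack it, the share was 0.362% in CLP and 0.503% in HDCA+CLP. Median depths were 8354 and 7820 UMIs in these neutrophil gate cells and 4717.5 and 4056 in the T gate. With every cell thinned to 2000 UMIs, high cells included, the share with Prtn3 was 1.36% in the CLP neutrophil gate (1.04 to 1.75), 2.48% in HDCA+CLP (2.16 to 2.85) and 0.444% in Sham (0.0113 to 2.45). Unthinned it was 6.03%, 9.85% and 1.69%, and thinning left out 81, 126 and 11 shallower cells. The thinned T gate shares were 0.202%, 0.149% and 0.0337%. The HDCA+CLP share thus lay above that of CLP by more than counting error. The Sham share rested on 1 cell, and its interval covered that of CLP and overlapped that of HDCA+CLP. Prtn3 was at 15.2 CPM in the HDCA+CLP neutrophil gate without high cells and 8.07 CPM in CLP (log2 ratio 0.91, interval 0.73 to 1.10). This ratio stayed above 0 with the gate at 2% (0.68) and at 10% (0.92). Over all cells of the gate the log2 ratio of Prtn3 was 0.35 (0.20 to 0.50), and it fell below 0 at 2%. High cells were picked by a sum that includes Prtn3. They held 223 of its 530 UMIs in the CLP gate and 163 of 1153 in that of HDCA+CLP. The ratio without high cells thus rests in part on that choice.

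Ms4a3 had a UMI in 1.61% (1.26 to 2.02) and 2.49% (2.16 to 2.85) of these neutrophil gate cells, against 0.164% and 0.0718% of T gate cells. At equal depth it was in 0.523% of CLP and 0.544% of HDCA+CLP neutrophil gate cells, within counting error of each other. Elane was in 0.0895% of CLP neutrophil gate cells without high cells, below the 0.131% of the T gate, and in 0.171% of HDCA+CLP, with 0.0718% in the T gate. Ctsg was in 4 and 1 cells and Mpo in 9 and 10, against 1 and 0 and 2 and 0 T gate cells, which is near the level of single counts. In these CLP cells the UMIs of Prtn3, Elane and Ms4a3 were 307, 5 and 98, and in those of HDCA+CLP 990, 16 and 269. In the high cells they were 2775, 1158 and 708, and 1097, 438 and 216. Elane was 19.1% and 19.3% of the 5 genes' UMIs in high cells and 1.18% and 1.24% in the rest of the neutrophil gate.

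**Figure D5:**
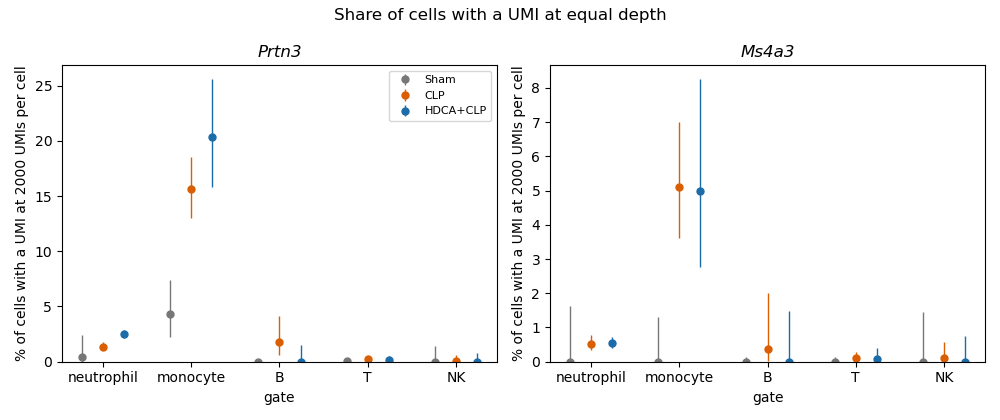
Percent of cells with a UMI of Prtn3 (left) and Ms4a3 (right) after thinning each cell to 2000 UMIs (y axis), by gate (x axis) and library, high cells included; bars are exact 95% intervals for counting error. In the neutrophil gate Prtn3 is at 0.444%, 1.36% and 2.48% in Sham, CLP and HDCA+CLP, and the T gate lies at 0.202% or lower.

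The neutrophil gate cells with Prtn3, high cells left out, were described by 12 genes chosen by hand. Il1b, an inflammatory cytokine, was at 11.4 CPM in those with Prtn3 and 164 CPM in those without in CLP, and at 60.6 and 348 CPM in HDCA+CLP. Mki67 was at 27.9 and 5.62 CPM in CLP, and in HDCA+CLP at 17.5 and 7.52 CPM. Fcnb, a ficolin of immature neutrophils, was at 55.1 and 31.5 CPM and at 71.8 and 33.3 CPM. Camp was at 15611 and 12426 CPM and at 14822 and 10317 CPM, and Cxcr2 at 470 and 604 CPM and at 573 and 655 CPM. The cells with Prtn3 were deeper, at medians of 10577 and 9570 UMIs against 8208 and 7645. When cells were sorted by a Prtn3 UMI after thinning, Il1b was at 14.1 and 153 CPM in CLP, with 85.8 and 318 CPM in HDCA+CLP. Mki67 was then at 28.3 and 6.92 CPM and at 25.1 and 8.27 CPM, and Fcnb at 48.5 and 33.1 CPM and at 65.0 and 37.2 CPM. The differences of Camp and Cxcr2 were smaller after thinning. Camp was at 13350 and 12671 CPM and at 13261.5 and 10808 CPM, and Cxcr2 at 586 and 594 CPM and at 599 and 646 CPM.

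The monocyte gate also held Prtn3 outside the high cells, in Sham too. It was found in 54 of 283 Sham cells (19.1%), 172 of 625 CLP cells (27.5%) and 75 of 243 HDCA+CLP cells (30.9%), with 0.0335% in the T gate of Sham. At equal depth, high cells included, the shares were 4.30% (2.24 to 7.39), 15.6% (13.002 to 18.5) and 20.4% (15.8 to 25.6). Sham cells with Prtn3 had Ly6c2 at 1299 CPM against 585 in those without, and Csf1r at 297 against 518 CPM. In CLP Ly6c2 was at 3112 against 1737 CPM and Csf1r at 184 against 272. In HDCA+CLP the values were 3670 against 2244 and 209 against 287 CPM. The order was thus the same in the 3 libraries. Mki67 differed by less in Sham, at 7.35 and 7.91 CPM, than in CLP, at 97.9 and 37.2 CPM. Median depths were 15246.5, 17622.5 and 14823 UMIs with Prtn3 and 9056, 12039 and 10518.5 without.

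The single Sham cell with at least 10 UMIs was of another kind. It had no gate, 8994 UMIs, 7 UMIs of Ctsg, 3 of Ms4a3 and none of Elane, Prtn3 or Mpo. It carried 486 UMIs of basophil and mast cell markers. There were 3, 7 and 1 cells with at least 10 UMIs of those markers in Sham, CLP and HDCA+CLP, and of the 5 genes only Ctsg and Ms4a3 were found in them.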

How the data were processed

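Raw UMI counts of each gene in each barcode were deposited as made by Cell Ranger 5.0.1, per the file headers. Seurat 4.0.6, R 4.0.3 and build mm39 are named as well, per the submitters' processing notes. The 3 libraries held 7159, 11387 and 12205 barcodes with 42427093, 87031721 and 95178381 UMIs (Sham, CLP, HDCA+CLP).

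A cell needed 500 UMIs, 200 genes and no more than 10% mitochondrial UMIs. Doublets were scored by their neighbours among simulated ones (2 for each cell), and the top 0.8% for every 1000 barcodes were removed (395, 987 and 1174). Counts were summed per library and gate and divided by the gate's UMIs. Ratios of 2 sums have exact conditional binomial intervals, and ratios and intervals were tested on simulated data. With 1 library per group no p-value was computed. Cells without a gate numbered 87, 336 and 182.

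The members, gene lists and thresholds were chosen with earlier results of these data known. Named genes are the 5 members, the 12 genes most correlated with their sum, and in each list the 3 highest and 2 lowest by the ratio of high cells to other neutrophil gate cells; others were named after their values were seen. Of the genes this rule names, 1 is not reported here. Correlations used log values per 10000 UMIs. Comparisons in the monocyte gate and their alternatives were added after the data were seen. Alternatives changed the filters, doublet removal, gate limit and order, scaling, cell weights, threshold and depth. Promoters are from RefSeq (GRCm38.p6); all 5 genes matched by symbol. Python 3.11.15, NumPy 2.4.6, SciPy 1.17.1, pandas 2.3.3, scikit-learn 1.9.0 and matplotlib 3.10.9 were used.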

Additional observations from a re-analysis of the deposited data

Results flagged for a closer look

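Elane moved in opposite directions in the pair of myeloid gates between HDCA+CLP and CLP: its log2 ratio was −1.84 in the neutrophil gate (interval −2.34 to −1.35) and 0.22 in the monocyte gate (0.06 to 0.39). The difference itself was not tested, and with 1 library per group it could not be. With the neutrophil gate at 10% the neutrophil gate value was 0.69 (−1.07 to 2.79) and the monocyte gate value 0.11 (−0.05 to 0.26). Without the 10 cells of each library with most of these UMIs, the values were −2.24 and −0.40. The opposite directions held under neither of these settings. The second setting left out neutrophil gate cells in HDCA+CLP but not in CLP. It also left out a larger share of the high cells of HDCA+CLP (48) than of CLP (112).

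Barcodes left out of the analysis also carried these transcripts, above the level in Sham. Those called doublets had 34.3 UMIs per 1000000 in CLP (interval 31.1 to 37.7) and 27.9 in HDCA+CLP (25.3 to 30.7), against 2.74 in Sham (1.37 to 4.90). Barcodes that failed the filters had 19.7 in CLP (11.1 to 32.6, 15 UMIs) and 206 in HDCA+CLP (152 to 272, 49 UMIs), against 0 UMIs in Sham, whose interval reached 9.68.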

How the results depend on the processing

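No paired analysis was possible because each group is 1 library. Of 87 values of the main results, 58 stayed within their counting interval, 27 moved outside it and 2 reversed; of 185 other values 154 stayed (list medians: within the quartiles of the list), 20 moved and 11 reversed. The summed CLP over Sham ratio kept its direction in both gates under each alternative and moved in 1 case: the monocyte gate log2 ratio was 3.26 as a mean over cells. The 10 highest cells were taken over all gates. In CLP the highest cell of the neutrophil gate ranked 15, so leaving them out removed no CLP cell of that gate. In HDCA+CLP it removed those of the neutrophil gate at ranks 6 and 10. By gene in the monocyte gate, the CLP over Sham log2 ratio was 3.15 (Prtn3), 3.73 (Ctsg) and 3.95 (Mpo) without the 10 highest cells. It was 3.41 (Ctsg) as a mean over cells. For HDCA+CLP over CLP the neutrophil gate ratio was −0.73 with the gate at 2%, 0.82 at 10%, 0.50 as a mean over cells and 0.044 without the 10 highest cells; the cause was not tested. The monocyte gate ratio was 0.28 with the neutrophil gate at 2% and −0.14 without the 10 highest cells. By gene in the neutrophil gate, the reversed values were −0.50 (Prtn3), −0.91 (Ctsg) and −0.52 (Mpo) at 2%, 0.69 (Elane), −2.77 (Ctsg) and −0.62 (Mpo) at 10%, −0.83 (Ctsg) as a mean over cells, and −0.77 (Ctsg) and −1.19 (Mpo) without the 10 highest cells. In the monocyte gate they were −0.40 (Elane) and −0.017 (Prtn3) without those cells. The same 10 cells were a larger share of the high cells in HDCA+CLP (48) than in CLP (112), so these ratios do not show what a direction rested on. The share of UMIs in 10 cells was 30.4% (CLP) and 29.5% (HDCA+CLP) without doublet removal, and 30.3% and 29.2% over all deposited barcodes. High cells as a share of all cells, in the order Sham, CLP, HDCA+CLP, were 0.123%, 1.73% and 0.765% at 5 UMIs and 0, 0.751% and 0.267% at 20. They were 0.700% in CLP at 0.1% of the UMIs of the cell, and 0.590% and 0.275% in CLP and HDCA+CLP when thinned. Within the monocyte gate these shares were 2.12%, 20.3% and 23.0% at 5 UMIs. For CLP and HDCA+CLP they were 8.33% and 7.77% at 20, 7.36% and 9.19% at 0.1%, and 6.10% and 8.57% when thinned. Thinning changed the depth and the threshold together, and the part of each was not tested. Depth limited what Sham can show: its neutrophil gate had 236 cells and 8 UMIs of the 5 genes.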
